A study of Mus musculus with 2 samples.

Results

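The genes described here encode the proteasome, the protease complex that degrades ubiquitin-tagged proteins. They were chosen by name from both count tables as every gene whose symbol begins with Psm, a letter from a to g and a digit. The pattern matched 50 of 32285 genes. Psmc3ip, a meiotic recombination factor, was also matched but is no proteasome gene, so it was left out of every sum and 49 genes remained. Of these, 47 had at least 100 UMIs over both sections, where a UMI is a molecular tag that counts an RNA molecule once. Psmb11, the catalytic subunit of the thymus proteasome, had 0 UMIs, which allows up to 0.103 CPM in the NCD section and 0.0416 CPM in the HFD section from a limit of 3 counts. Psma8, a subunit of the testis proteasome, had 11 and 82 UMIs. CPM is UMIs per 1000000 UMIs over tissue, and the UMIs lie at the 3′ ends of transcripts, so they were not divided by gene length.

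Spatial transcriptomics (ST) counts came from 10x Visium liver sections of male C57BL/6J mice, purchased at 5 weeks of age and acclimated for 1 week. The NCD section came from 1 mouse of the control group, labelled NCD, and the HFD section from 1 mouse fed a high-fat diet (HFD, 60% fat) for 14 weeks to induce nonalcoholic fatty liver disease (NAFLD). Both mice then received distilled water by mouth for 8 weeks, and the tissue was fresh frozen and cut at 10 µm after hepatic perfusion. With 1 section per diet no test was possible, and diet cannot be told apart from mouse, section or library. Every interval below is a 95% interval that covers counting error only. The labels also give a hematopoietic stem cell line and an immune cell type, whereas the data were those of liver. Alb, the serum albumin gene of hepatocytes, had 56011 CPM in NCD and 57872 CPM in HFD. The 7 listed hematopoietic stem cell genes together had 28.0 and 38.2 CPM, of which Kit had 3.06 and 3.02 CPM.

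The NCD section had 29037988 UMIs over 3692 spots, with a median of 4188 UMIs per spot, and the HFD section had 72118803 UMIs over 3594 spots, with a median of 18549. A spot is a small area that can hold several cells of different types. Spots outside the tissue held 19.1% of the UMIs of the NCD slide and 2.93% of those of the HFD slide. When each spot on the NCD section was set against each spot outside the tissue of that slide, the former was the deeper in 51.6% of pairs, against 99.2% for HFD. The sections share 3173 spot barcodes, which are positions printed in every such area and not shared cells.

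In the proteasome, the 20S core is a barrel of alpha rings around beta rings, and the catalytic beta subunits cut proteins inside it. The 19S regulatory particle caps the core, binds and unfolds ubiquitinated proteins and feeds them in. Interferon induces the immunoproteasome, in which Psmb9, Psmb10 and Psmb8 replace the constitutive catalytic subunits Psmb6, Psmb7 and Psmb5 at the β1, β2 and β5 sites, and which yields peptides for presentation on MHC class I. Hepatocytes, the main cells of the liver, carry mostly constitutive proteasomes, while leukocytes are rich in immunoproteasomes.

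The immunoproteasome genes Psmb8 (GRCm38 chr17:34197721-34201454, plus strand) and Psmb9 (chr17:34181987-34187764, minus strand) lie in the MHC region, and Psmb10 lies on chromosome 8 (chr8:105935735-105938444, minus strand). Promoter windows of 250 bases before to 50 after the start were taken from RefSeq on GRCm38.p6 and matched 41 of the 49 genes. The entries for Psma8, Psmb1, Psmb2, Psmb7, Psmc3, Psmd3, Psmd7 and Psmg2 were missing. Windows were searched on both strands for an interferon response motif (GAAA and GAAA with 2 bases between), an antioxidant response motif (TGAC and GC with 3 bases between), which binds the factors Nfe2l1 and Nfe2l2, and the CCAAT box. No motif contains another, though matches can overlap at their ends, and a match is a description of the letters, not a site. The first was held by 5 of 41 windows (Psmb3, Psmd4, Psmd9, Psme1 and Psmg4), against 3.99% of 27025 genes with a window. The second was held by 6 windows (Psmb5, Psmb6, Psmc6, Psmd12, Psmd9 and Psme4), or 14.6%, against 14% of genes, and CCAAT by 14, or 34.1%, against 41.1%. None of the windows of Psmb8, Psmb9 and Psmb10 held these letters of the first or second motif. This holds for the RefSeq starts used and not for other starts of these genes. The Psmb8 window, chr17:34197945-34198244, lies within the gene span given above, and so does the Psmb9 start used, chr17:34187330. The windows of 4 genes follow, chosen because Psmb9 shares its upstream DNA with Tap1, Psme1 is the PA28 gene with an interferon motif, and Psmb5 and Psmb6 are the constitutive catalytic genes with an antioxidant motif.
Psmb9: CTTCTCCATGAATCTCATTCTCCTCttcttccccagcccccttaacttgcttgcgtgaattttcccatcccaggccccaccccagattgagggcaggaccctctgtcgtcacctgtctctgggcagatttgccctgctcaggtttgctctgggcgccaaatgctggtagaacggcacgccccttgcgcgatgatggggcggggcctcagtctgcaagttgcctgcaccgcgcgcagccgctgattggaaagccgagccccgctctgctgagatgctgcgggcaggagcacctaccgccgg
Psme1: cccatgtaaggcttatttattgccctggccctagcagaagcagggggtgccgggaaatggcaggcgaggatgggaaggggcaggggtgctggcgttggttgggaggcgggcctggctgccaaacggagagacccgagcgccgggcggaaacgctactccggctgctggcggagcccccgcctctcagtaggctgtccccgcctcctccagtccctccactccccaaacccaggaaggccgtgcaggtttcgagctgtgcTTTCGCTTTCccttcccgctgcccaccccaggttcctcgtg
Psmb5: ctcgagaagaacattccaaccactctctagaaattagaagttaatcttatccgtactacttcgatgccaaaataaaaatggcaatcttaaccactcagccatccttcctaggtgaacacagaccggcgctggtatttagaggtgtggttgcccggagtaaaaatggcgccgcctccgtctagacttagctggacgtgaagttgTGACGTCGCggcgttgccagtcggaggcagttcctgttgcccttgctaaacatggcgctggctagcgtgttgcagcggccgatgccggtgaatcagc
Psmb6: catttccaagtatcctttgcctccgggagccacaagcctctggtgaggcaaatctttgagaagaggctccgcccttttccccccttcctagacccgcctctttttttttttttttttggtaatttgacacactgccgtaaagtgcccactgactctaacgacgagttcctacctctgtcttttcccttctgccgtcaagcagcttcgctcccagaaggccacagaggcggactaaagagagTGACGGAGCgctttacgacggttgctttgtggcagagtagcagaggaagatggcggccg
The Psmb9 window is chr17:34187281-34187580 on the minus strand. Its capitals mark the 25 bases that lie past the start of Tap1, the peptide transporter gene, which runs the opposite way from a start 226 bases away. The Psme1 window is chr14:55578244-55578543 on the plus strand, with the interferon motif in capitals from base 10 after the start. The Psmb5 window (chr14:54617946-54618245, minus strand) and the Psmb6 window (chr11:70525107-70525406, plus strand) have the antioxidant motif in capitals, from 47 and 9 bases before the start.

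The first comparison asked how proteasome RNA differed between the NCD and HFD livers. All 49 genes together had 4005 CPM in NCD (3982 to 4028) and 3629 CPM in HFD (3615 to 3643), a log2 ratio of HFD over NCD of -0.14 (-0.15 to -0.13). The 14 genes of the 20S core were lower in HFD, with 2180 and 1857 CPM and a log2 ratio of -0.23 (-0.24 to -0.22). The 17 genes of the 19S particle had 1239 and 1187 CPM, a log2 ratio of -0.06 (-0.08 to -0.04). The 3 immunoproteasome genes went the other way, with 116 CPM in NCD and 129 CPM in HFD, a log2 ratio of 0.15 (0.09 to 0.21). A spot mixes cells, so fewer cells of a type and less RNA per cell cannot be told apart. CPM is a share of all RNA, and the median log2 ratio of the 11913 genes with at least 100 UMIs was 0.24. Relative to that median, the core was at -0.47, the 19S particle at -0.30 and the immunoproteasome genes at -0.09, so the immunoproteasome sign depends on the reference. Without that reference, the log2 ratio of the immunoproteasome genes was 0.15 at full depth and 0.04 when every spot was drawn down to 3000 UMIs.

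Few proteasome genes differed between the sections by a large factor. Past 1.5-fold, 0 of 47 were higher in HFD, against 25.5% of all genes tested. Lower past 1.5-fold was 1 of 47, Psme2b, against 5.01% of all genes. The intervals of 13 lay above 0, against 53.5% of all genes, and those of 23 lay below 0, against 17.1%. Because an interval narrows as UMIs rise, these shares also depend on the UMI counts of the genes compared. Their log2 ratios had a median of -0.05, and 39 of 47 lay below the median of all genes. Psmd1, at 1.49-fold higher, and Psmb4, at 1.49-fold lower, were the nearest to the threshold from within.

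**Figure D1:**
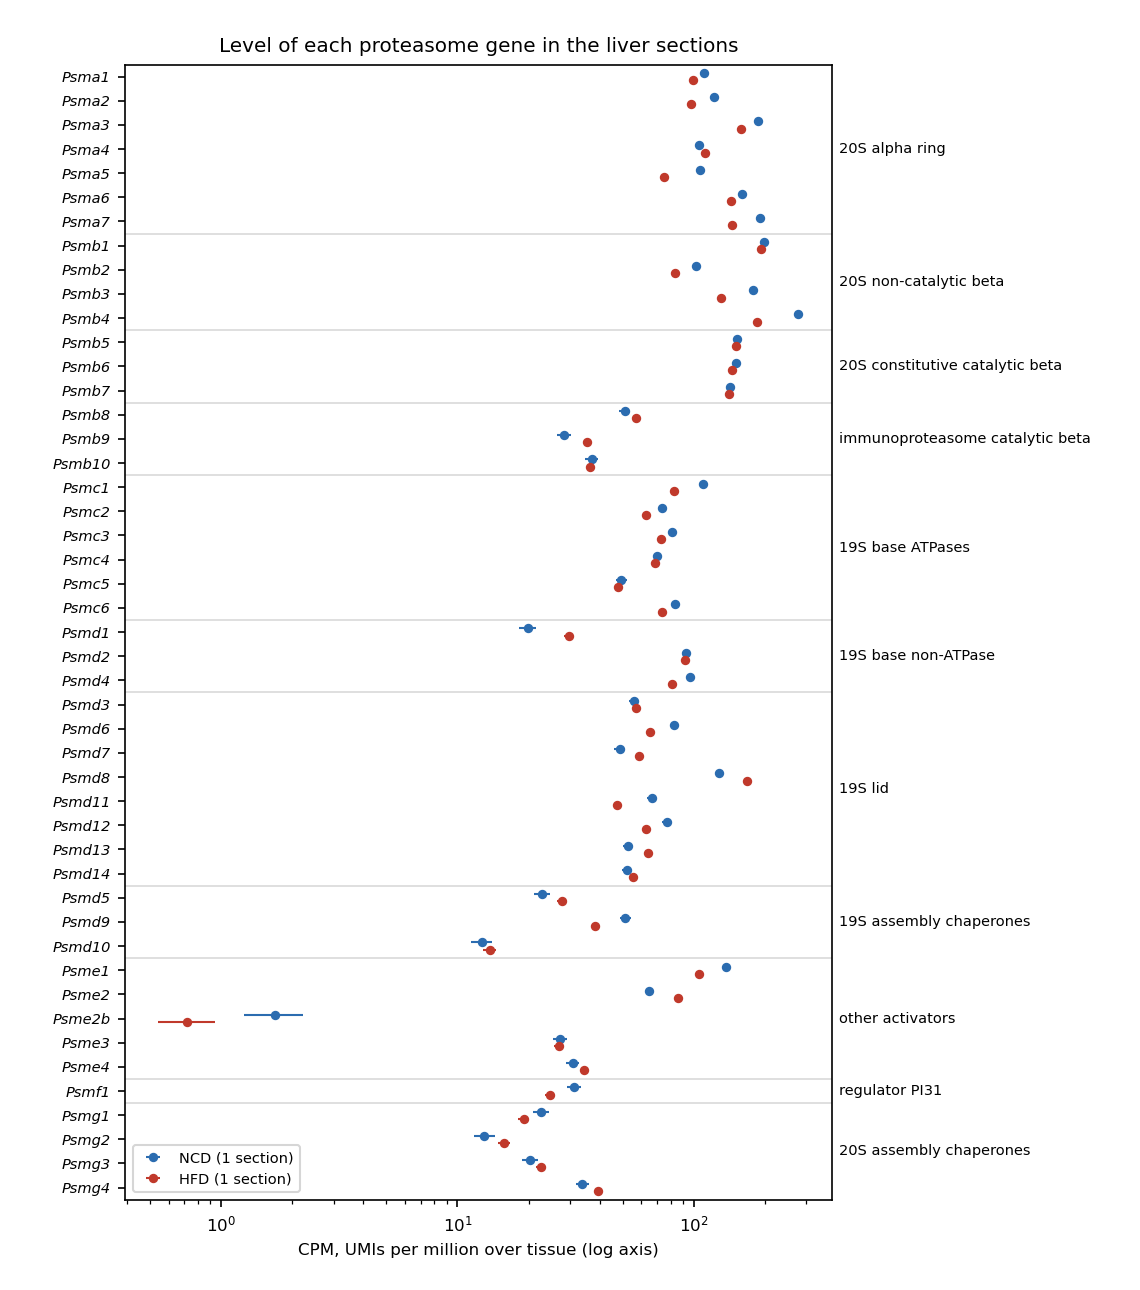
Level of the 47 proteasome genes with at least 100 UMIs, in CPM on a log axis, in the NCD section (blue) and the HFD section (red). Bars are 95% Poisson intervals for counting error, and rows follow the role of each gene. Psmb8, Psmb9 and Psmb10 sit between 28.2 and 57.1 CPM, below all 14 core genes.

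In the alpha ring, which gates the entry to the core, 6 of 7 genes had intervals below 0. Psma5 was the lowest, with 107 CPM in NCD and 74.7 CPM in HFD (log2 ratio -0.51, -0.58 to -0.45). Psma4 was the exception, with 105 and 112 CPM (0.09, 0.03 to 0.15). Psma7 had 190 and 145 CPM (-0.39), and Psma3 had 187 and 158 CPM (-0.25). The non-catalytic beta subunits complete the beta rings, and 3 of 4 had intervals below 0. Psmb4 had the highest count of all members in NCD, 276 CPM against 185 CPM in HFD (-0.58, -0.62 to -0.54). Psmb3 had 178 and 131 CPM (-0.44), whereas Psmb1 had 198 and 193 CPM (-0.04, -0.08 to 0.01). The core was therefore not uniformly lower.

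The constitutive catalytic genes were nearly level between the sections. Psmb5, the chymotrypsin-like β5 subunit, had 152 CPM in NCD and 151 CPM in HFD (log2 ratio -0.01, -0.06 to 0.04). Psmb6, the caspase-like β1 subunit, had 151 and 145 CPM (-0.06, -0.11 to -0.01). Psmb7, the trypsin-like β2 subunit, had 142 and 140 CPM (-0.02, -0.07 to 0.04). Each of them differed by less than the 1.5-fold threshold, and only the interval of Psmb6 left out 0.

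The immunoproteasome genes did not move together. Psmb9, the β1 subunit, had 28.2 CPM in NCD and 35.3 CPM in HFD (0.33, 0.21 to 0.44). Psmb8, the β5 subunit, had 51.1 and 57.1 CPM (0.16, 0.07 to 0.25), and Psmb10, the β2 subunit, had 37.0 and 36.5 CPM (-0.02, -0.12 to 0.08). The intervals of Psmb8 and Psmb9 lay above 0 and that of Psmb10 included it. As a share of the UMIs of all 6 catalytic genes, the immunoproteasome genes made up 20.7% in NCD (Clopper-Pearson, 20.1 to 21.3) and 22.8% in HFD (22.4 to 23.2). At the β1 site the share was 15.7% in NCD and 19.6% in HFD, at β2 it was 20.7% and 20.6%, and at β5 it was 25.1% and 27.4%. These are shares of RNA counts and not of assembled proteasomes. Off tissue, the share was 19.3% on the NCD slide and 18.5% on the HFD slide. After subtraction of off-tissue RNA, the share was 23.5% in NCD and 23.1% in HFD, so the order of the sections turned. The amount subtracted was the mean off-tissue UMIs per spot times the number of spots over tissue. It took a far larger part of the NCD counts. Median UMIs per spot were 3383 off and 4188 over tissue for NCD, and 1175.5 and 18549 for HFD. The NCD share thus rests on a reduced remainder, and no interval is given for the turned order. Drawn down to 3000 UMIs, the share was 21.8% in NCD and 22.5% in HFD. The 17 leukocyte genes had 802 CPM in NCD and 1529 CPM in HFD, all 17 with intervals above 0 and Ptprc, the pan-leukocyte receptor CD45, at 6.61 and 10.7 CPM. Their part in the immunoproteasome values was not tested. With the leukocyte-rich spots left out, the log2 ratio of the immunoproteasome genes was 0.18. The spots that remained still differed in leukocyte genes, with 638 CPM in NCD and 1268 CPM in HFD.

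In the 19S base, whose ATPases unfold substrates, Psmc1 was the lowest of 6, with 109 CPM in NCD and 82.3 CPM in HFD (-0.41, -0.47 to -0.35). Psmc4 was the nearest to 0 of them, with 70.2 and 68.3 CPM (-0.04, -0.11 to 0.04). Of the scaffold and ubiquitin receptor subunits, Psmd1 was higher in HFD, with 19.8 and 29.6 CPM (0.58, 0.44 to 0.71). Psmd4, a ubiquitin receptor, had 96.7 and 80.9 CPM (-0.26), and Psmd2, a scaffold, had a log2 ratio of -0.02. The 8 lid genes, of which Psmd14 is the deubiquitinase, were split. Psmd8 was the highest, with 127 and 168 CPM (0.40, 0.35 to 0.45), and Psmd11 the lowest, with 66.4 and 47.4 CPM (-0.49, -0.57 to -0.41). Psmd14 itself had a log2 ratio of 0.08, with an interval that included 0. Intervals lay above 0 for 3 lid genes and below 0 for 3.

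The activators outside the 19S particle differed in direction. PA28, a ring of the Psme1 and Psme2 products that interferon induces, opens the core to peptides. Psme1 had 137 CPM in NCD and 105 CPM in HFD (-0.38, -0.43 to -0.32), whereas its partner Psme2 had 64.8 and 85.6 CPM (0.40, 0.33 to 0.48). Psme3, the nuclear PA28 gene, had 27.1 and 26.8 CPM (-0.02), and Psme4, which encodes PA200, had 30.8 and 34.2 CPM (0.15). Psme2b had 49 UMIs in NCD and 52 in HFD, or 1.69 and 0.72 CPM (-1.23, -1.82 to -0.63). It is a near copy of Psme2, its reads may be split between them, and its 2.91 CPM off tissue on the NCD slide exceeded its level over tissue, so its value is uncertain. Psmf1, the proteasome inhibitor PI31, had 31.2 and 24.7 CPM (-0.34, -0.46 to -0.22).

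The assembly chaperones, which build the core and the base and are not part of the finished complex, were at low counts. Of the base chaperones, Psmd9 had 51.4 CPM in NCD and 38.1 CPM in HFD (-0.43), and Psmd5 had 22.8 and 27.7 CPM (0.28, 0.15 to 0.41). Psmd10, also called gankyrin, had 12.7 and 13.7 CPM, and its interval included 0. Of the core chaperones, Psmg2 was the highest by ratio, with 13.0 and 15.8 CPM (0.28, 0.11 to 0.45). Psmg1, its partner, had 22.6 and 19.1 CPM (-0.24, -0.38 to -0.11).

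**Figure D2:**
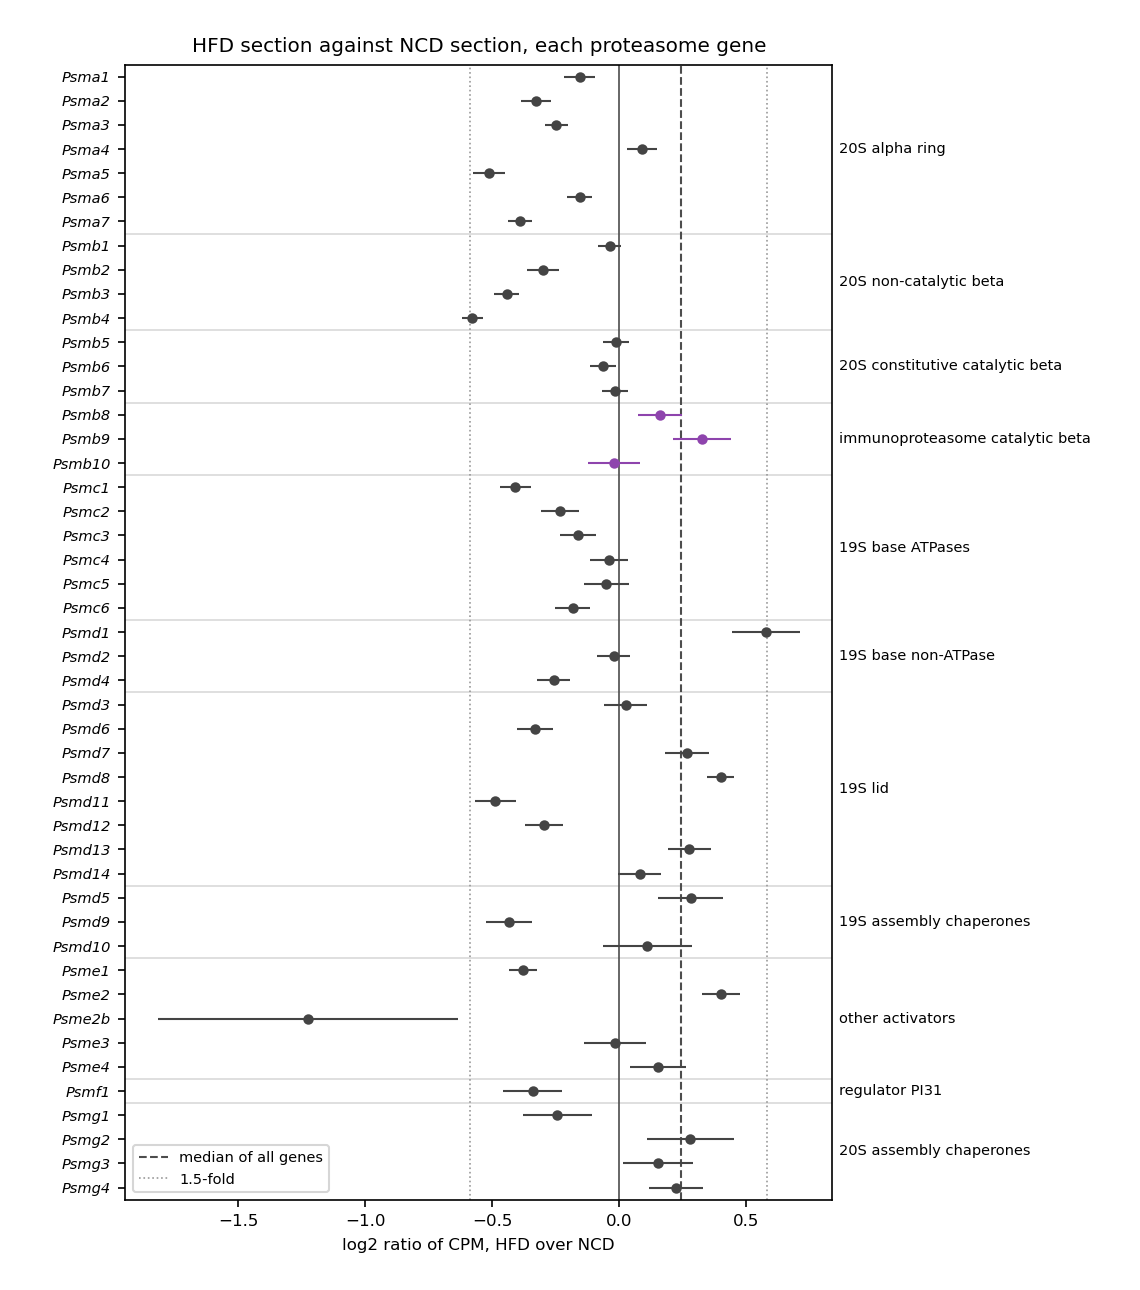
Log2 ratio of CPM, HFD over NCD, for the same 47 genes, with 95% intervals for counting error and the immunoproteasome genes in purple. The solid line is no difference, the dashed line the median of all genes at 0.24 and the dotted lines 1.5-fold. Only Psme2b lies past a dotted line, and 39 genes lie left of the dashed line.

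Genes that work with the proteasome outside the name pattern were read from lists of their roles. Of 9 partner genes found in the tables, 1 was higher past 1.5-fold, Zfand2a, a stress-induced proteasome adaptor, with 6.03 and 13.5 CPM (1.16), and 1 was lower, Zfand5, an activator, with 55.9 and 36.7 CPM (-0.61). Pomp, the core maturation factor, had 197 and 210 CPM (0.09). Of 4 genes that control subunit transcription, Nfe2l1, the factor that induces subunit genes when proteasomes are inhibited, was higher past 1.5-fold, with 32.9 and 53.0 CPM (0.69, 0.59 to 0.79). Nfe2l2, the oxidative stress factor, had 52.5 and 75.2 CPM (0.52), and Ddi2, the protease that activates Nfe2l1, had 100 and 75.3 CPM (-0.42). Of 13 ubiquitin and delivery genes, Ubqln4, a shuttle factor, was higher past 1.5-fold, with 11.2 and 17.2 CPM (0.62). Of 9 class I genes, H2-D1, a class I heavy chain, was past 1.5-fold, with 570 and 965 CPM (0.76). Tap1, which faces Psmb9 across their shared upstream DNA, had 22.8 and 25.8 CPM (0.18, 0.05 to 0.31). Each list thus held at most 1 gene higher past 1.5-fold, against 25.5% of all genes tested. The share of all genes lower past 1.5-fold was 5.01%.

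The second comparison asked where in the lobule proteasome RNA lay. Hepatocytes change along the axis from the portal inflow to the central vein. Spots with at least 1000 UMIs were ordered by 12 pericentral genes against 12 periportal genes, none of them a proteasome gene, and divided into 3 equal parts in each section. This left 2852 of 3692 spots in NCD and 3590 of 3594 in HFD. In NCD, all proteasome genes had 3475 CPM in the periportal, 3894 CPM in the middle and 4528 CPM in the pericentral part. The pericentral over periportal log2 ratio was 0.38 (0.36 to 0.40), against a median of 0.13 over all 7732 genes with at least 100 UMIs in these parts. In HFD, they had 3377 CPM in the periportal and 3902 CPM in the pericentral part, a log2 ratio of 0.21 (0.19 to 0.22), against a median of 0.10 over 10753 genes. In both sections proteasome RNA thus made up a higher share of all RNA on the pericentral side. As a count of UMIs it was 27954 periportal and 45239 pericentral in NCD, and 102116 and 81832 in HFD, over nearly equal numbers of spots. Whether the ratios differ between the diets was not tested. Median UMIs per spot were 5373 periportal and 7420 pericentral in NCD, and 24469 and 16380 in HFD, so depth ran the other way in HFD. Drawn down to 3000 UMIs, the log2 ratios were 0.39 and 0.17. The leukocyte genes had 753 and 767 CPM in NCD and 1418 and 1447 CPM in HFD in the periportal and pericentral parts.

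Core and cap shared this position. The 20S core was at 0.39 (0.36 to 0.42) in NCD and 0.23 (0.21 to 0.24) in HFD, and the 19S particle at 0.41 (0.37 to 0.45) and 0.23 (0.21 to 0.26). Of 46 genes with enough UMIs in both sections, 37 had intervals above 0 in NCD, against 28.7% of all genes, and 37 in HFD, against 31.0% of all genes. An interval narrows as UMIs rise, so these shares also depend on the UMI counts of the genes compared. Relative to the median of all genes, 30 intervals lay above it in NCD and 25 in HFD, and 0 and 2 lay below. The share of all genes was not computed for that reference. In both sections the interval lay above 0 for 33, including all 14 core genes, but the share of all genes that did so was not computed. In NCD 27 were higher by a log2 ratio past 0.32, the threshold used within sections, against 24.0% of all genes, and in HFD 2, against 16.2%. Those 2 were the lid genes Psmd3 and Psmd7, past the threshold in both sections. None of the 46 had an interval below 0 in NCD, against 7.76% of all genes, or was lower past the threshold there, against 6.54%. Psmd7 had 41.0 CPM periportal and 57.0 CPM pericentral in NCD (0.47, 0.28 to 0.67), and 51.4 and 65.7 CPM in HFD (0.36, 0.25 to 0.46). Psmd3 had 49.1 and 65.2 CPM in NCD (0.41, 0.23 to 0.59), and 52.1 and 65.3 CPM in HFD (0.33, 0.22 to 0.43). Both genes were thus higher pericentrally in both mice. By log2 ratio, Psma5 was the highest member in NCD, with 84.5 and 130 CPM (0.62, 0.48 to 0.75), and had 67.3 and 83.7 CPM in HFD (0.31, 0.22 to 0.41).

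**Figure D3:**
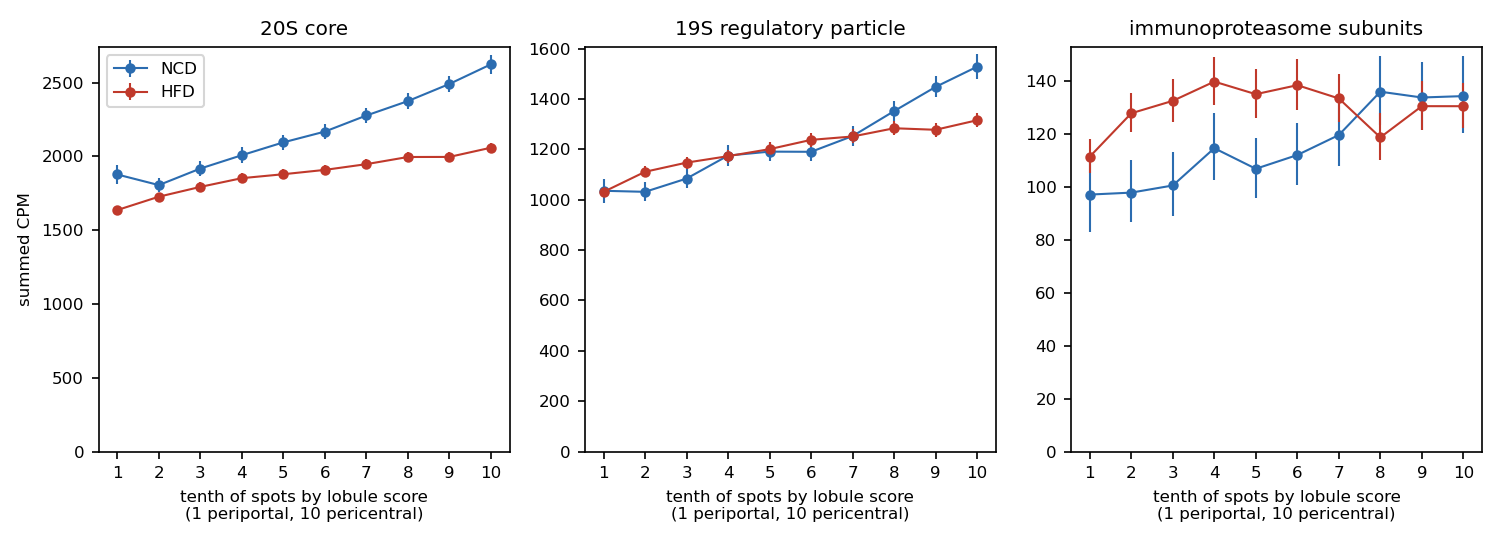
Summed CPM of the 20S core, the 19S particle and the immunoproteasome genes over 10 equal groups of spots ordered from periportal (1) to pericentral (10), in NCD (blue) and HFD (red), with 95% Poisson intervals. From group 1 to group 10 the core went from 1878 to 2624 CPM in NCD and from 1637 to 2059 CPM in HFD.

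Psmg2, a core chaperone, was the only member of the 46 with a ratio below 0 in both sections. It had 14.7 CPM periportal and 14.1 CPM pericentral in NCD (-0.06, -0.42 to 0.31), and 17.4 and 13.6 CPM in HFD (-0.35, -0.56 to -0.14). In HFD it was the only 1 of 46 lower past the threshold, against 7.39% of all genes, and the only 1 with an interval below 0, against 10.0%. No gene had intervals on opposite sides of 0 in the 2 sections. Psme2 was nearly flat, with 61.9 and 66.7 CPM in NCD (0.11) and 84.3 and 85.7 CPM in HFD (0.02), while Psme1 had 119 and 152 CPM (0.35) and 97.4 and 112 CPM (0.20).

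The immunoproteasome genes followed the axis in NCD and hardly in HFD. Together they had 102 CPM periportal and 133 CPM pericentral in NCD (0.39, 0.26 to 0.51), and 125 and 127 CPM in HFD (0.02, -0.05 to 0.09). Psmb8 had 41.6, 49.3 and 60.6 CPM in the periportal, middle and pericentral parts of NCD (0.54, 0.35 to 0.74). In HFD it had 56.5, 61.4 and 53.6 CPM (-0.08, -0.19 to 0.03). Psmb9 was higher pericentrally in both, with 24.5 and 31.1 CPM in NCD (0.35, 0.08 to 0.61) and 31.9 and 37.5 CPM in HFD (0.23, 0.10 to 0.37). Psmb10 had 35.4 and 41.0 CPM in NCD (0.21, -0.01 to 0.44), and 36.4 and 35.6 CPM in HFD (-0.04, -0.17 to 0.10). Their constitutive partners kept one sign: Psmb5 was at 0.34 and 0.29, Psmb6 at 0.24 and 0.18, and Psmb7 at 0.28 and 0.27, in NCD and HFD. The immunoproteasome share of catalytic UMIs was 19.9% periportal and 21.0% pericentral in NCD, and 23.7% and 21.0% in HFD. The difference between the sections was not tested.

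**Figure D4:**
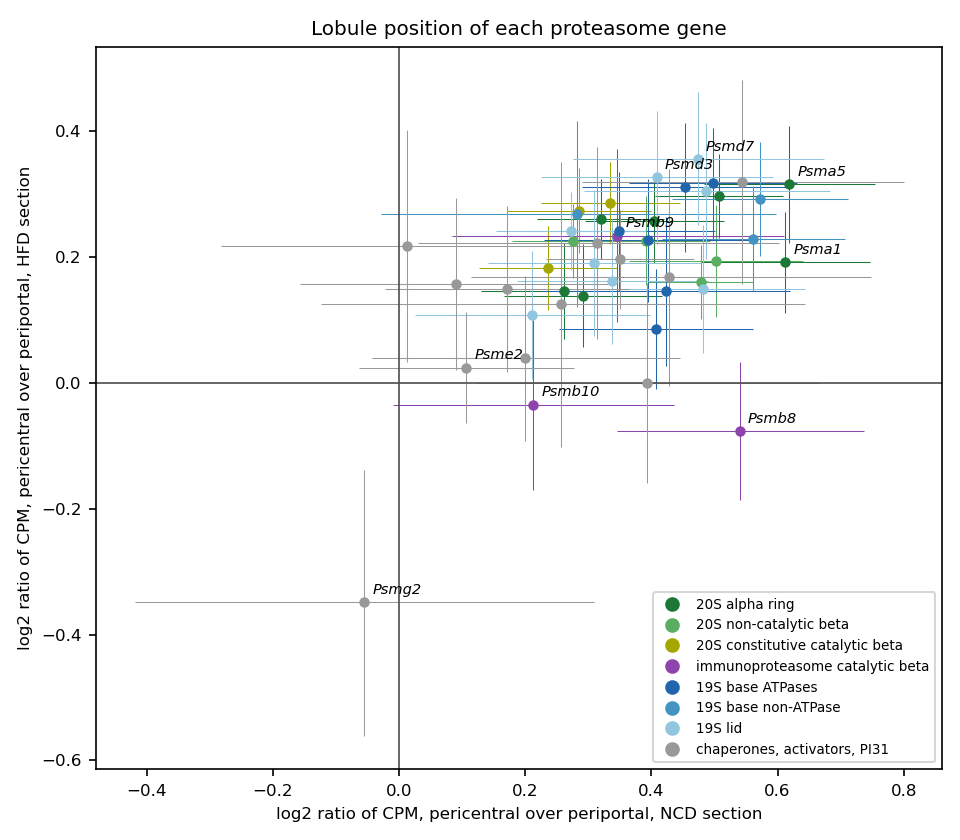
Pericentral over periportal log2 ratio of each of 46 proteasome genes in the NCD section (horizontal axis) and the HFD section (vertical axis), coloured by role, with 95% intervals for counting error. Most genes lie in the upper right, Psmb8 is at 0.54 in NCD and -0.08 in HFD, and Psmg2 lies below 0 in both.

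The third comparison asked whether immunoproteasome RNA lay with leukocyte RNA. Leukocyte-rich spots were the 1 in 10 spots with the highest share of UMIs in the 17 leukocyte genes, 285 spots in NCD and 359 in HFD. They were shallower than the other spots in NCD, with medians of 3654 and 7127 UMIs, but not in HFD, with 19857 and 18415. The part of depth in the ratios was not tested. The immunoproteasome genes had 227 CPM there and 109 CPM in the other spots of NCD, a log2 ratio of 1.05 (0.90 to 1.21). In HFD they had 175 and 123 CPM, a log2 ratio of 0.51 (0.42 to 0.59). The 20S core was at 0.07 and 0.05, and the 19S particle at 0.08 and 0.01, near the medians of all genes, 0.14 and 0.11. Higher past the log2 threshold of 0.32 were 11 of 46 members in NCD, against 32.9% of all genes, and 3 in HFD, against 25.9%. Psmb8, Psmb9 and Psmb10 were the only members past it in both sections, with Psmb9 in HFD just at the threshold. Lower past it was 1 member in NCD, the base chaperone Psmd5 (-0.57), against 8.52% of all genes, and 0 in HFD, against 4.67%.

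Psmb8 had 102 CPM in the leukocyte-rich spots and 47.9 CPM in the others in NCD (1.10, 0.86 to 1.33), and 83.5 and 54.0 CPM in HFD (0.63, 0.50 to 0.75). Psmb9 had 60.2 and 26.2 CPM in NCD (1.20, 0.88 to 1.503), and 43.0 and 34.4 CPM in HFD (0.32, 0.15 to 0.49). Psmb10 had 64.5 and 35.2 CPM in NCD (0.87, 0.57 to 1.16), and 48.7 and 35.1 CPM in HFD (0.47, 0.31 to 0.63). Each was higher in leukocyte-rich spots of both mice. Among the constitutive partners, Psmb7 was at -0.05 and -0.03, Psmb5 at 0.19 and 0.21 and Psmb6 at 0.34 and 0.17, in NCD and HFD. The immunoproteasome share of catalytic UMIs was 31.4% in the leukocyte-rich spots and 19.9% in the others of NCD (intervals 28.7 to 34.1 and 19.2 to 20.5). In HFD it was 27.2% and 22.2% (25.9 to 28.4 and 21.8 to 22.6). The PA28 genes were also higher, Psme1 at 0.49 and 0.22 and Psme2 at 0.69 and 0.22. Psmd8 and Psmg4 completed the 9 members with intervals above 0 in both sections, with Psmb5 and Psmb6 among them. The share of all genes with such intervals was not computed, so this count has no reference. Tap1, beside Psmb9, had 42.8 and 21.7 CPM in NCD (0.98) and 33.9 and 24.8 CPM in HFD (0.45).

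Interferon-rich spots were chosen likewise by 14 interferon-stimulated genes, none a proteasome gene. They were shallower than the other spots, with medians of 2968 and 7258 UMIs in NCD and 13731 and 19249 in HFD. The immunoproteasome genes had 212 CPM there and 111 CPM in the others of NCD (0.93, 0.76 to 1.10), and 169 and 126 CPM in HFD (0.43, 0.33 to 0.52). Higher past the log2 threshold were 10 of 46 members in NCD, against 25.2% of all genes, and 2 in HFD, against 9.41%. Psmb8 and Psmb9 were past it in both sections. Lower past it was 1 member in each, Psmg2 in NCD (-0.52, with an interval that included 0), against 10.4% of all genes, and Psmg1 in HFD (-0.35), against 7.92%. Psmb9 had 59.2 and 26.6 CPM in NCD (1.15, 0.81 to 1.48), and 49.7 and 34.1 CPM in HFD (0.54, 0.36 to 0.72). Psmb8 had 88.7 and 49.1 CPM in NCD (0.85), and 74.3 and 55.6 CPM in HFD (0.42). Psmb10 had 64.1 and 35.5 CPM in NCD (0.85), and 44.7 and 35.8 CPM in HFD (0.32, 0.13 to 0.51). The intervals of Psmb2, Psmb10 and Psme2 also lay above 0 in both sections, and the share of all genes that did so was not computed. The 20S core was at 0.13 (0.08 to 0.18) in NCD and 0.06 (0.03 to 0.09) in HFD, and the 19S particle at 0.08 and -0.0019. Irf1, the interferon factor that induces these genes, had 38.7 and 17.7 CPM in NCD (1.13) and 25.02 and 17.5 CPM in HFD (0.52). Leukocyte genes were higher in interferon-rich spots too, by 1.06 in NCD and 0.19 in HFD on the log2 scale. The 2 kinds of rich spots shared 68 spots in NCD, 23.9% of each, and 51 in HFD, 14.2% of each. Their separate parts were not tested.

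**Figure D5:**
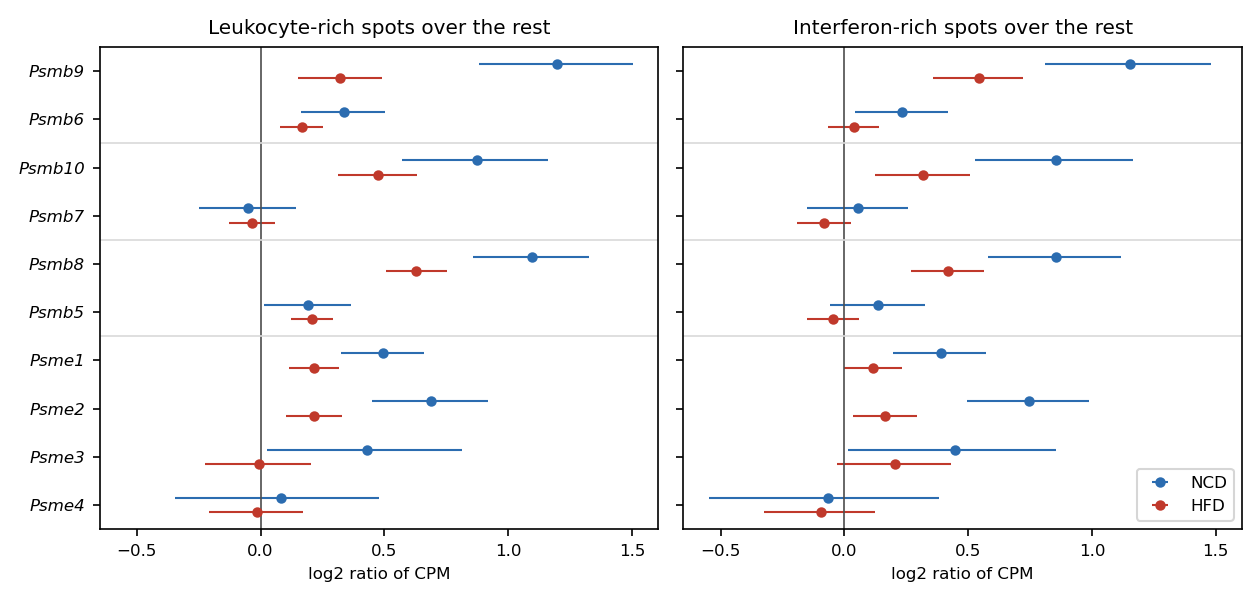
Log2 ratio of CPM in leukocyte-rich spots (left) and interferon-rich spots (right) over the other spots, for the catalytic pairs at β1, β2 and β5, with the immunoproteasome gene first in each pair, and for the activators, in NCD (blue) and HFD (red). Bars are 95% intervals for counting error. Psmb8, Psmb9 and Psmb10 lie above 0 in both panels and both sections, and Psmb7 lies at -0.05 and -0.03 on the left.

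Detection per spot followed depth. Psmb8 had a UMI in 27.0% of NCD spots and 61.3% of HFD spots, and in 15.6% and 16.0% of spots after each was drawn down to 3000 UMIs, which left out 1585 and 56 shallower spots. Off tissue, the drawn-down shares of Psmb8 were 13.4% on both slides. Psmb5 was found in 36.3% and 36.4% of drawn-down spots over tissue, and in 40.8% (37.2 to 44.4) and 40.1% (32.0 to 48.7) off tissue. At equal depth these shares compare the makeup of the RNA and not its amount. Without drawing down, Psmb5 had a UMI in 49.8% of NCD and 88.7% of HFD spots over tissue, and in 46.8% and 18.0% of spots off tissue. For Psme2 the drawn-down shares were 16.9% in NCD and 22.2% in HFD over tissue, and 13.5% and 16.9% off tissue.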

How the data were processed

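The deposited tables are UMI counts of 2 Visium libraries, by gene and by spot, made by the authors with Space Ranger 1.3.1 on mm10, per the labels' processing notes and the study's methods, with no normalization. The aligner settings and annotation are not given in the sources used here. Genes were placed on GRCm38 with GENCODE M21. Spot positions, images and the study's scRNA-seq data were not analysed here.

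The proteasome genes and all gene lists were chosen with earlier results of these data known. UMIs were summed over spots and divided by their total (CPM). Sums have exact Poisson, shares exact Clopper-Pearson and ratios exact conditional binomial intervals at the 95% level, with numpy 2.4.6 and scipy 1.17.1, and cover counting error only. Genes entered a comparison with at least 100 UMIs, and spots entered the comparisons within sections with at least 1000. The lobule score is the mean z score of log counts per 10000 of 12 pericentral minus 12 periportal genes. Thresholds of 1.5-fold between sections and a log2 ratio of 0.32 within them are descriptive. Named genes were the catalytic pairs, the highest and lowest ratio of each role group, members past the threshold in both sections along the lobule, and listed genes past 1.5-fold. Genes outside this rule were named after their values were seen. The result of 1 listed gene is not reported here. Alternatives were drawing down to 3000 UMIs (seed 1), other totals, spot filters and groupings, and subtraction of off-tissue RNA. For the spots over tissue, the table of those spots and the table of all spots differed by 0 UMIs. The ratios and intervals were tested on simulated data. The simulated counts for them held counting error only, which the intervals assume, and no variation between mice, spots or libraries.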

Additional observations from a re-analysis of the deposited data

Results flagged for a closer look

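Proteasome UMIs lay outside the tissue as well. Spots off tissue, which enter none of the comparisons, had 3908 CPM of proteasome genes on the NCD slide and 2954 CPM on the HFD slide, against 4005 and 3629 CPM over tissue. On the NCD slide the log2 ratio of tissue over off-tissue level was 0.04 (0.02 to 0.05), and on the HFD slide 0.30 (0.26 to 0.33). Hepatocyte genes had 81444 CPM off tissue in NCD and 49313 CPM in HFD. The source of this RNA was not tested.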

How the results depend on the processing

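No paired analysis was possible because each diet has 1 section. Between sections, the log2 ratios of all proteasome genes, the core, the 19S particle and the immunoproteasome genes were -0.17, -0.25, -0.091 and 0.043 when drawn down to 3000 UMIs, and -0.19, -0.27, -0.10 and 0.046 as means of CPM per spot. Relative to the median of all genes they were -0.39, -0.47, -0.30 and -0.094. Without mitochondrial and the most abundant genes in the total, the first 3 were -0.17, -0.25 and -0.084. With off-tissue RNA subtracted, all genes, the 19S particle and the immunoproteasome genes were at -0.18, -0.13 and 0.023. The count lower past 1.5-fold, 1 at first, was 3 drawn down (Psmb4, Psmd11 and Psme2b), 2 as means per spot, 2 with the other total, 9 relative to the median and 4 after subtraction. The count higher was 1 as means per spot (Psmd1) and 1 after subtraction (Psmb1, whose level off tissue in NCD exceeded that over tissue), and Psme2b then had no value. The shares of all genes under these settings were not computed, so these counts cannot be read as particular to proteasome genes. Relative to the median, the log2 ratio of every gene was lowered by 0.24. The immunoproteasome share in NCD was 21.8% drawn down and 23.5% after subtraction. Pericentral over periportal ratios of all proteasome genes stayed above 0: in NCD 0.44 with the outer 1 in 4 spots at each end, 0.28 with the other total and 0.25 relative to the median, and in HFD 0.24, 0.16 and 0.11, and 0.17 drawn down. The immunoproteasome ratio in leukocyte-rich spots was 0.63 in NCD and 0.41 in HFD with the top 1 in 4 spots, and 0.39 in HFD relative to the median. In interferon-rich spots it was 0.68 and 0.25 with the top 1 in 4, and 0.69 in NCD drawn down. Drawing down left out spots under 3000 UMIs, and the interferon-rich NCD spots had a median of 2968. Within sections, the values relative to the median, and between them the set of leukocyte-rich spots left out, were chosen after seeing the data. Spots of at least 3000 UMIs, another lobule score and shortened marker lists moved these values by less than their intervals. The cause of the shifts was not tested, and 3 proteasome genes (Psma8, Psmb11 and Psme2b) had too few UMIs for the comparisons within sections.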
